A study of Mus musculus with 16 samples.

Results

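The effect of ethanol drinking on the adolescent mouse brain was examined across both nicotine backgrounds, with all 16 of the 16 mice of the series in the comparison. The 8 mice that drank ethanol (4 Water-Ethanol and 4 NE mice) were set against the 8 that did not (4 WW and 4 NW mice) in a model with nicotine and ethanol as factors, and 15592 of the 24062 genes in the count table had enough reads to be tested. The mice were female, singly housed and of the inbred strain C57BL/6J, and RNA-seq was made from the whole brain with the cerebellum on postnatal day (PND) 45. WW mice drank water only, NW mice were offered 200 µg/ml nicotine for 22 h per day, Water-Ethanol mice had 20% v/v ethanol in the drinking-in-the-dark sessions, and NE mice had both. Nicotine was given for 6 days before the sessions and between them, but its bottles were removed during each session. NW and NE mice thus had no nicotine in the 4 h of the last session. The sessions ran on 4 days from PND 42, for 2 h each and for 4 h on the last, and brains were taken at the end of that last session. The authors reported that NE mice drank more ethanol in that session than Water-Ethanol mice and had higher blood ethanol. The ethanol dose may thus differ between the nicotine backgrounds.

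Ethanol reaches the whole brain within minutes of drinking. It acts on ligand-gated ion channels of neurons, it is cleared mainly by oxidation to acetaldehyde and acetate, and it raises the osmolality of body fluids. Glial cells and vessels as well as neurons are known to respond to it, so that a whole-brain library mixes the responses of many cell types. In such bulk RNA, fewer cells of a type and less RNA per cell cannot be told apart.

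Libraries held 27100352 to 32880979 counted reads. Some mice stood apart. Gabra6, the GABA-A receptor subunit of cerebellar granule cells, had 1070.2 normalized counts (read counts scaled to library size) in WW replicate 21 and 1655 in NW replicate 10, against 3423 to 4487 in the other 14 mice. Neither of these mice had drunk ethanol, so cerebellar genes moved with the contrast. WW replicate 20 held more RNA of the olfactory mucosa and of collagen genes, and NW replicate 10 more ribosomal RNA and pituitary hormone RNA. Mouse numbers ran in blocks by group, so that any handling in that order cannot be told apart from treatment. Counts of called list members below are also given without WW replicates 20 and 21 and NW replicate 10 where leaving these 3 mice out changed them.

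A total of 702 of the 15592 genes (4.5%) differed with ethanol in the quasi-likelihood test of edgeR, with 0.05 as the threshold on the Benjamini-Hochberg adjusted p-value. Of these, 458 (2.94% of genes tested) were higher and 244 (1.56%) lower in the mice that drank. Before adjustment 3567 genes (22.9%) had a p-value under 0.05. Most differences were small. The median log2 fold change was 0.18 among the higher and -0.19 among the lower genes, and 27 genes moved by more than 0.5. In 104 genes (0.667% of those tested) all 8 ethanol mice lay above or below all 8 others, and 97 of these 104 were among the 702. Without the 3 mice named above 594 genes were called. Leaving out single mice moved the count between 280 (without NE replicate 4) and 899 (without NW replicate 10). Of the 702 genes, 219 were called in each of the 27 fits run, 152 of them higher and 67 lower.

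The 4 genes with the smallest p-values were Chd2, Kcnj13, Tgfb3 and Serinc2, and in each of them every ethanol mouse exceeded every mouse without ethanol. Chd2, on chromosome 7 from 73426652 to 73541746, encodes an ATP-dependent chromatin remodeller in which loss-of-function variants cause epilepsy. It had 2453 to 2685 normalized counts (median 2531) in the 8 mice without ethanol and 2935 to 3295 (median 3117) in the 8 mice with it. The log2 fold change was 0.30 (SE 0.03), a rise of 22.9%, with an adjusted p-value of 8.43e-05. An annotated transcript, 1810026B05Rik, overlaps its exons on the same strand, and reads of these loci may not be fully separated.

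Kcnj13 encodes Kir7.1, an inwardly rectifying potassium channel of choroid plexus and other epithelia. Its normalized counts were 172 to 224 (median 197) without ethanol and 273 to 324 (median 292) with it, a log2 fold change of 0.57 (SE 0.06, adjusted p = 8.43e-05 in edgeR's test). Of the 11 choroid plexus markers tested, Kcnj13 was the single member called (9.09%, against 4.5% of all genes), and the median over the list was 0.04. The gene lies on chromosome 1 from 87386284 to 87394729.

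Tgfb3, a TGF-beta ligand, and Furin, the protease that cleaves TGF-beta precursors, both rose. Tgfb3, on chromosome 12 from 86056743 to 86079041, had 447 to 521 normalized counts (median 482) without and 589.8 to 686 (median 629.9) with ethanol, a log2 fold change of 0.41 (SE 0.043). Furin, on chromosome 7 from 80389194 to 80405431, had 1161 to 1219.7 (median 1169) against 1330.5 to 1494 (median 1433), a log2 fold change of 0.27 (SE 0.032, adjusted p = 0.000214). No other of the 25 TGF-beta and BMP ligands, receptors and processing genes tested was called. The 2 calls were 8.0% of the list, against 4.5% of all genes, and its median was 0.04. Neither the groups of Tgfb3 nor those of Furin overlapped.

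Serinc2 belongs to the family of serine incorporators, multipass membrane proteins of the plasma membrane and endosomes. It had 163 to 234 normalized counts (median 191) without ethanol and 241 to 334 (median 289) with it. The log2 fold change was 0.59 (SE 0.065, adjusted p = 0.000111), or 0.76 in the water background and 0.42 in the nicotine background. The NW mice all lay above the WW mice in Serinc2, and the difference between the backgrounds had an unadjusted interaction p-value of 0.0189 in edgeR's test that did not pass adjustment. The other 4 family members had estimates between -0.07 and 0.03 and were not called. Serinc2 lies on chromosome 4 from 130253497 to 130275586.

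Ethanol labels of each of these 5 genes were also permuted within each nicotine background. Each gave the smallest p-value that the 4900 arrangements of this exact two-sided test allow, 0.0004. This outcome followed from the lack of overlap in these genes, which were picked by their p-values, so it adds no separate evidence. The other genes among the 10 highest ranked were C77080, Zfp609, Med13l, Car15 and Zfp280b, with log2 fold changes of 0.30, 0.24, 0.21, 0.45 and 0.21. Zfp609 and Zfp280b encode zinc finger proteins, Med13l a subunit of the Mediator kinase module and Car15 a membrane-anchored carbonic anhydrase. In all 5 the ethanol mice lay above all others. C77080 shares exon positions with Yars on the opposite strand, and the sources name both a stranded and an unstranded version of the library kit.

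**Figure D1:**
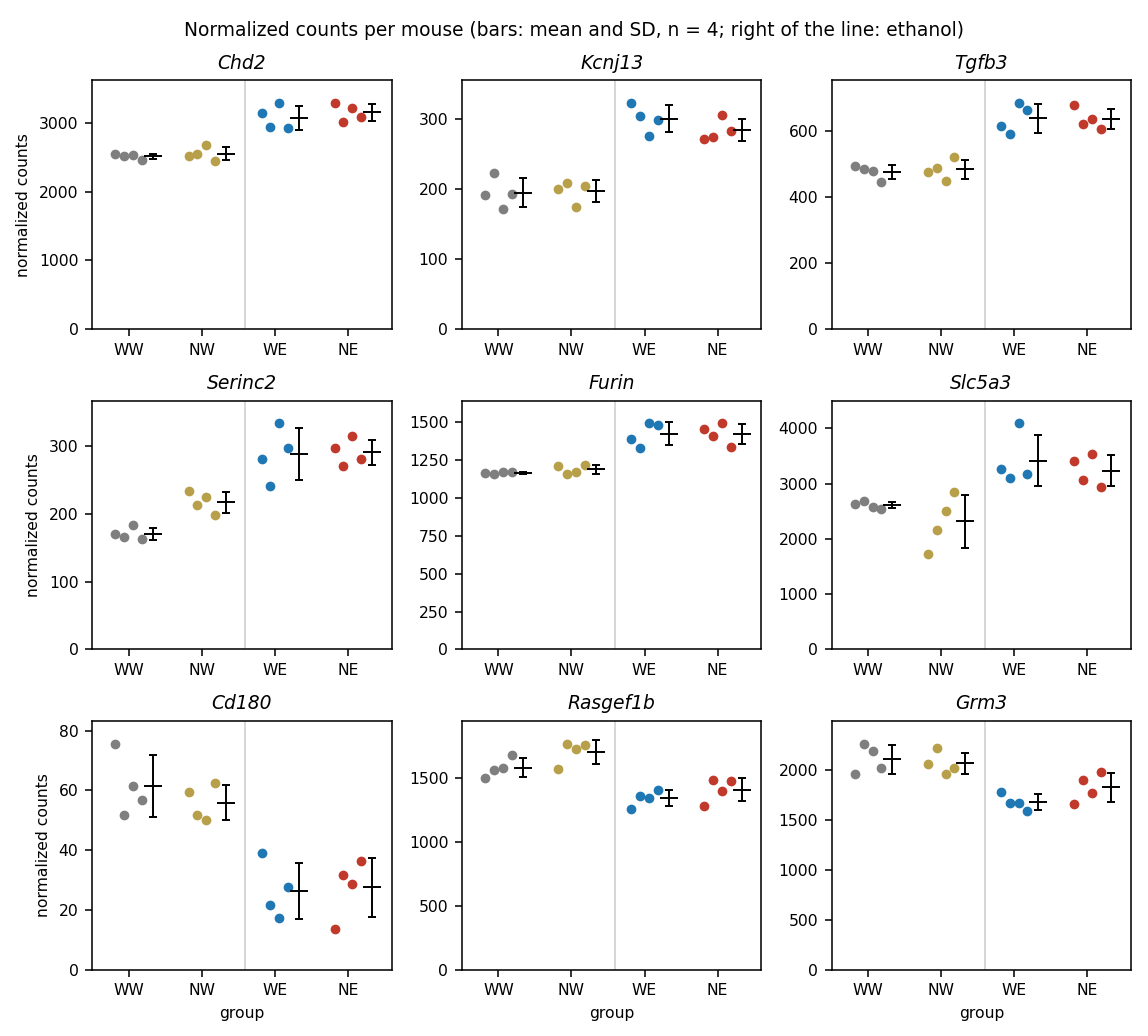
Normalized counts (y axis, from 0) of 9 genes in each mouse of the 4 groups (x axis, with Water-Ethanol as the third), with the mean and SD of each group of 4 as a black bar. In the first 6 genes all 8 ethanol mice, right of the grey line, lie above the 8 others; in Cd180 and Rasgef1b all 8 lie below, and in Grm3 7 of 8 do.

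RefSeq promoter windows (250 bases before to 50 after the gene's start, GRCm38.p6) are shown for 3 of the leading genes that have one, and for Slc5a3, the osmolyte transporter described next. Capitals mark the letters TGGAAA, the core of the NFAT5 element, on either strand. NFAT5 is the transcription factor of the response to hypertonicity.
Furin (chr7:80405387-80405686, minus strand): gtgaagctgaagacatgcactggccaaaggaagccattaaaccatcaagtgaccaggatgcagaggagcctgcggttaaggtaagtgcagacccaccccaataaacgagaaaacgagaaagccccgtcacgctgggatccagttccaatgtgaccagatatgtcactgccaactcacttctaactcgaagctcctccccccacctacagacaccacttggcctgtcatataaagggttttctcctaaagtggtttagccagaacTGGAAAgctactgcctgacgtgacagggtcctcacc
Kcnj13 (chr1:87394680-87394979, minus strand): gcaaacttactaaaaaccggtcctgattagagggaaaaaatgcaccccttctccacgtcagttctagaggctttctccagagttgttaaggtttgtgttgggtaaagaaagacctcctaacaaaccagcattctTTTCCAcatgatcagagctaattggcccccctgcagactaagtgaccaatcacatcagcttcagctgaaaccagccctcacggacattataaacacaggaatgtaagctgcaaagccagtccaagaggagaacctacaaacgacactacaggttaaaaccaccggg
Serinc2 (chr4:130275537-130275836, minus strand): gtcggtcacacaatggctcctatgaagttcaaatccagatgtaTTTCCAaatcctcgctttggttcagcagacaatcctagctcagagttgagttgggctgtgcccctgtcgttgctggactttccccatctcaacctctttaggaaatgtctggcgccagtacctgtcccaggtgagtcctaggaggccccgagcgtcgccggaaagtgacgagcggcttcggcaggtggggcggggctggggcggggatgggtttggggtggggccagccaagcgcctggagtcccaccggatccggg
Slc5a3 (chr16:92058072-92058371, plus strand): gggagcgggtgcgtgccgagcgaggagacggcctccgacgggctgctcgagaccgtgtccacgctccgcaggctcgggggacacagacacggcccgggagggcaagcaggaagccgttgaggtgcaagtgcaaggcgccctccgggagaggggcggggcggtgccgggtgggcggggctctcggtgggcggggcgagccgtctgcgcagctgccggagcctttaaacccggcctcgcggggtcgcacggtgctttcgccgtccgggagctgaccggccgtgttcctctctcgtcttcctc
Furin, Kcnj13 and Serinc2 each held TGGAAA once, from bases 15, -116 and -207 relative to the start, and the window of Slc5a3 held none. The letters were as frequent elsewhere. They stood in 16% of the windows of genes called higher (55 of 343), 20.4% of those called lower (38 of 186) and 16.8% of all tested genes with a window (1940 of 11580). For the E-box CACGTG these shares were 8.45%, 8.06% and 9.77%, and for the short site TGACG of the cAMP response element 33.8%, 36.6% and 30.1%. For the full element TGACGTCA, which contains that short site, they were 2.92%, 4.3% and 3.1%. The heat shock letters GAANNTTC stood in 4.37%, 9.14% and 5.76%, and the glucocorticoid receptor site AGAACA in 11.4%, 15.6% and 12.4%. These are counts of letters in short windows and were not tested.

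Slc5a3, Slc38a2, Slc6a6 and Nfat5 rose among the genes of osmolyte uptake. Of 9 tested members of a list of osmolyte transporters and NFAT5 targets, these 4 were called higher (44.4%, against 2.94% of all genes tested) and 0 lower, and the median log2 fold change was 0.20 against 0.00 over all genes tested. This list, like the other pathway lists, was chosen with earlier results of these data known, so its share is a description. Slc5a3, the sodium/myo-inositol cotransporter, had 1734 to 2855 normalized counts (median 2561) without ethanol and 2939 to 4089.6 (median 3223) with it. Its log2 fold change was 0.43 (SE 0.079, adjusted p = 0.00685), and the groups did not overlap. Slc5a3, on chromosome 16 from 92058322 to 92087473, lies within Mrps6 on the same strand, so some of its reads may be assigned to either gene.

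Slc38a2, a sodium-coupled neutral amino acid transporter, had 5926 to 9594 normalized counts (median 8516) without and 9392 to 14589.7 (median 11302) with ethanol, a log2 fold change of 0.51 (SE 0.098, adjusted p = 0.00851). Of the 8 ethanol mice 7 exceeded all others, and NW replicates 7 and 8 were the lowest mice. Slc6a6, the taurine transporter, rose by 0.19 (SE 0.042) and Nfat5 itself by 0.21 (SE 0.046) on the log2 scale, with overlapping groups. Slc6a12, Slc2a1 and Sgk1 had estimates of 0.09, 0.09 and 0.28 that did not pass the test, and the water channel Aqp4 had -0.01. Hspa4l had -0.03, and Akr1b3, also in the list, had 0 counts in all mice and was not tested. The same 4 genes were called without the 3 mice named above. NW replicates 7 and 8, the lowest mice over the whole list, are not among those 3, and leaving both out was not tested. Trpv4, a cation channel opened by cell swelling that was chosen here after its values were seen, had 106 to 149 normalized counts without and 152 to 200.5 with ethanol, a log2 fold change of 0.47 (SE 0.074, adjusted p = 0.00317) without overlap.

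Igf1r, Irs1 and Irs2 rose among the genes of insulin and insulin-like growth factor signalling. They were the 3 called of 19 genes tested in that list (15.8%, against 4.5% of all genes), and 0 were lower. The list's median was 0.04, and without the 3 mice, when Pik3r2 was called as well, it was 0.00. Igf1r, the IGF1 receptor, had a median of 3404 normalized counts (3261 to 3762) without and 3833 (3541 to 4334) with ethanol, a log2 fold change of 0.20 (SE 0.041). Irs1 rose from a median of 1180.4 (1036 to 1272) to 1348 (1268 to 1392) and Irs2 from 1561 (1324 to 1793) to 1914 (1641 to 2002). These were log2 fold changes of 0.21 (SE 0.044) and 0.26 (SE 0.057), with adjusted p-values of 0.0144 and 0.0179 in edgeR's test. Irs2 shares exon positions with 9530052E02Rik on the opposite strand. The insulin receptor gene Insr had 0.11 and the ligand Igf1 0.04, neither of which passed. All 3 called genes were called in each of the 16 fits that left out a mouse.

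Among 31 chromatin remodellers and histone methyltransferases, Chd2, Arid2, Chd9 and Setd5 were higher and 0 were lower (12.9% called, against 4.5% of all genes). Arid2, a subunit of the PBAF complex, rose by 0.16 (SE 0.026, adjusted p = 0.00317) and Chd9 by 0.13 (SE 0.029, adjusted p = 0.0221) on the log2 scale, both without overlap between the ethanol and other mice. Setd5 rose by 0.15 (SE 0.039, adjusted p = 0.0373). The estimate was positive for 25 of the 31 genes and the list's median was 0.04. Without the 3 mice 2 of the 31, Chd2 and Arid2, were called, a share near that over all genes.

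Kcnj13, Kcnc1 and Kcnv1 were the 3 called of 35 potassium channel genes (8.57%, against 4.5% of all genes). Kcnc1, the Kv3.1 channel of fast-spiking neurons, rose by 0.21 (SE 0.054), and its lowest value of 7899.6 normalized counts was in WW replicate 21, a mouse low in cerebellar RNA. Kcnv1, a silent subunit of cortical neurons, fell by 0.27 (SE 0.075, adjusted p = 0.0489). Both calls were lost when some single mice were left out, and were made in 7 and 3 of the 16 fits that left out a mouse. Kcnj13 was the single potassium channel called without the 3 mice. Kcnt1 and Kcnb2 had log2 fold changes of 0.23 (adjusted p = 0.0875) and -0.14 (adjusted p = 0.234).

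Receptors through which neurons respond to glutamate and GABA were also examined. Grm3, the mGlu3 receptor of astrocytes and neurons, fell from a median of 2041 normalized counts (1958 to 2264) to 1722 (1589 to 1982), a log2 fold change of -0.25 (SE 0.042, adjusted p = 0.00413), with 7 of 8 ethanol mice below all others. It was the single call among 7 metabotropic receptors tested (14.3%, against 4.5% of all genes). The kainate receptor gene Grik2 rose by 0.12 (SE 0.03, adjusted p = 0.0302). It was the single call of 18 ionotropic glutamate receptor subunits (5.56%), and was not called without the 3 mice. Grin2a and Grin2b had -0.13 and -0.18, with adjusted p-values of 0.26 and 0.141. For Grin2b the estimate was -0.42 in the water background and 0.07 in the nicotine background. None of 15 GABA-A receptor subunits was called, and 12 of them had a negative estimate.

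Among genes that mark activated neurons and stress, calls were near the share over all genes or absent. Jun, a subunit of the AP-1 transcription factor, was the single call of 22 activity-regulated immediate early genes (4.55%, against 4.5% of all genes). It rose by 0.16 (SE 0.038, adjusted p = 0.0218). Ier5 was called in its place without the 3 mice. Fosb had 238 to 388 normalized counts without and 299.9 to 439 with ethanol, a log2 fold change of 0.31 (adjusted p = 0.0861). Of the 22 genes 18 had a positive estimate and the median was 0.10, or 0.02 in the water and 0.17 in the nicotine background. NW replicates 7 and 8 were the lowest mice in this list, with a mean centred log2 CPM of -0.31 and -0.59 against -0.07 to 0.14 in the other 14 mice, and their part in the result was not tested. The lists of glucocorticoid receptors and responsive genes (20 tested), ER stress genes (20) and heat shock and cold-inducible genes (15) held 0 called genes, with medians of 0.09, 0.10 and -0.02. Sdf2l1 of the ER stress list and Hspa1b and Dnajb1 of the heat shock list were called higher without the 3 mice. Of 11 genes of ethanol and acetaldehyde metabolism 0 were called, and their median was -0.05. In lists this small, 0 calls cannot be told apart from the 4.5% of all genes. Nr1d2, a nuclear receptor of the clock, was the single call of 19 circadian genes (5.26%), at 0.11 (SE 0.03, adjusted p = 0.0472). Without the 3 mice Per2, Cry2 and Tef were called in its place.

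**Figure D2:**
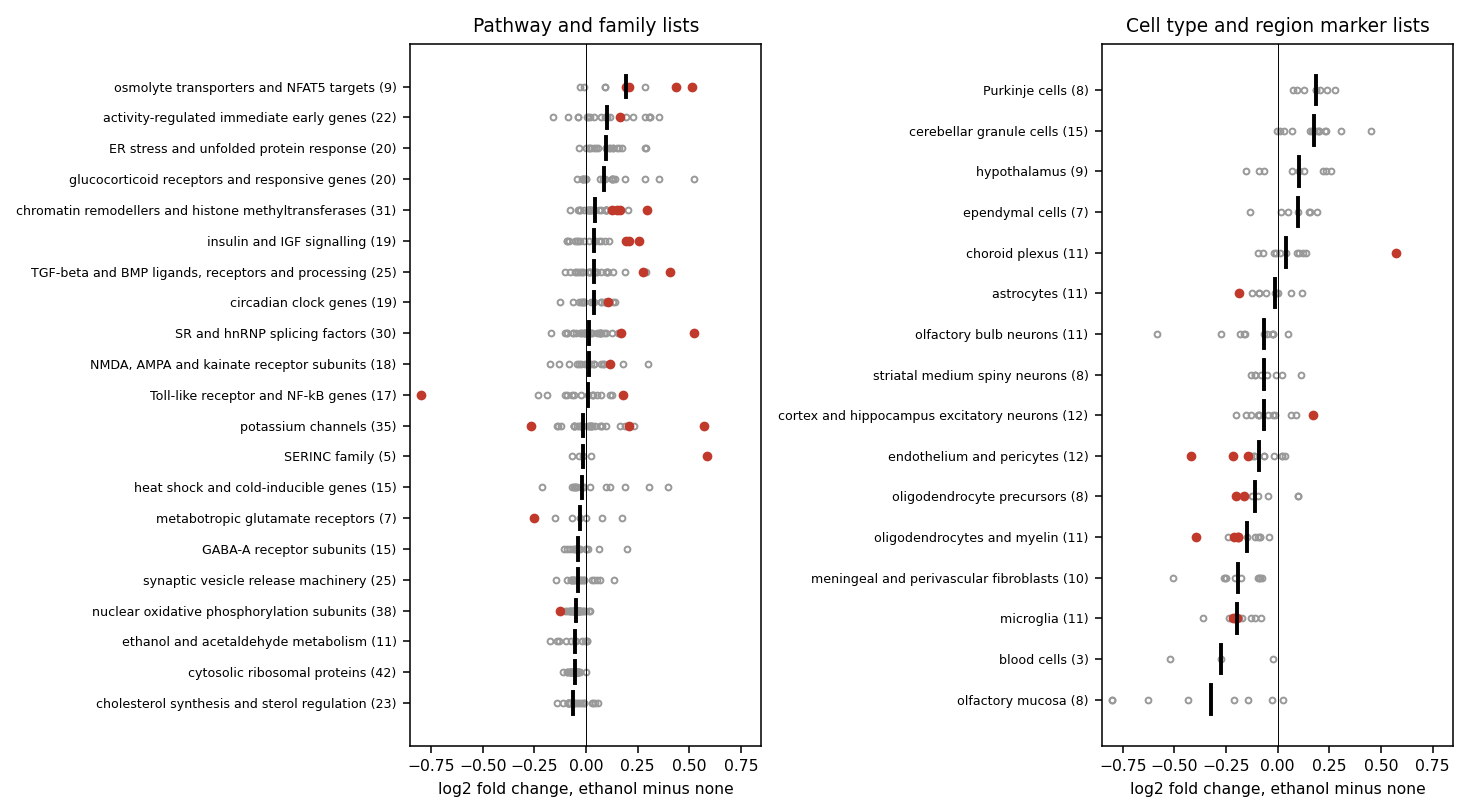
Log2 fold changes with ethanol (x axis) of the genes in each pathway list (left) and cell type or region marker list (right), with the number tested in parentheses. Filled red points passed the test, open grey points did not, values beyond 0.8 are drawn at 0.8, and the black bar is the list's median, which runs from -0.06 to 0.20 on the left and from -0.32 to 0.18 on the right.

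Cx3cr1, C1qa and C1qb fell among 11 microglial markers tested (27.3%, against 1.56% of all genes called lower). All 11 had negative estimates, with a median of -0.20, and the other 8 did not pass the test. Cx3cr1, the fractalkine receptor, had 1168 to 1577 normalized counts (median 1337) without and 1061 to 1297 (median 1143) with ethanol, a log2 fold change of -0.20 (SE 0.052, adjusted p = 0.0387). The complement genes C1qa and C1qb had -0.22 and -0.21. Summed over the list, microglial markers took 336.7 to 435.7 CPM (counts scaled to library size) without ethanol (median 367.6) and 307.4 to 367.9 with it (median 334.2), so the ranges overlapped. Without the 3 mice 0 of the 11 were called and the median was -0.13, and leaving out single mice gave 0 to 6 calls.

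Single immune genes outside that list moved in both directions, with Ptpn22 and Cfp, described below, higher and those given here, which were picked from the results, lower. Cd180, a Toll-like receptor homologue of immune cells, had 50.2 to 75.7 normalized counts (median 58.0) without and 13.7 to 39.0 (median 28.2) with ethanol. Its log2 fold change of -1.12 (SE 0.17, adjusted p = 0.00248) was among the largest and the groups did not overlap. Plek, encoding the protein kinase C substrate pleckstrin, fell by 0.27 (SE 0.041) and P2ry13, a receptor for ADP, by 0.49 (SE 0.088), with 7 of 8 ethanol mice below all others in each. Fcrls and Apbb1ip, chosen after their values were seen, had -0.35 and -0.46. Of 17 Toll-like receptor and NF-kB genes, Cd180 was lower and Traf6, an adaptor of these receptors, was higher (0.18, SE 0.036, adjusted p = 0.00956). These were the only calls of that list (11.8%, against 4.5% of all genes).

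Cnp, Ugt8a, Opalin and Mal fell among 11 markers of oligodendrocytes and myelin (36.4%, against 1.56% of all genes called lower). All 11 had negative estimates (median -0.15, or -0.26 in the water and -0.06 in the nicotine background), and these 4 were called, with log2 fold changes of -0.21, -0.19, -0.39 and -0.19. Opalin, a membrane protein of myelinating cells, had 422 to 723 normalized counts without and 324 to 549 with ethanol. The abundant myelin gene Mbp had an estimate of -0.09 and did not pass. Olig1 and Olig2, transcription factors of the lineage, were the 2 called of 8 precursor markers (25.0%). Among these 8, Neu4 and Bmp4 had positive estimates. Olig1 had 3327 to 3993 normalized counts (median 3723) without and 2993 to 3427 (median 3232) with ethanol, a log2 fold change of -0.20 (SE 0.034, adjusted p = 0.00445). Summed myelin markers spanned 7739 to 9247 CPM without and 7224 to 8686 CPM with ethanol. Without the 3 mice 2 of the 11 and 1 of the 8 were called, and leaving out single mice gave 0 to 6 and 1 to 2.

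Slco1a4, Pdgfrb and Kcnj8 were lower among 12 markers of endothelium and pericytes (25.0%, against 1.56% of all genes called lower), and 0 were higher. Slco1a4, an organic anion transporter of the blood-brain barrier, fell from a median of 2354 normalized counts (2232 to 2705) to 2059.8 (1877 to 2274), a log2 fold change of -0.22 (SE 0.037, adjusted p = 0.00481). The pericyte genes Pdgfrb and Kcnj8 had -0.15 and -0.42. Of the 12 markers 9 had negative and 3 positive estimates, with a median of -0.09. The endothelial junction genes Cldn5 and Cdh5 were among the positive ones, at 0.04 and 0.02. The efflux pump gene Abcb1a and the large neutral amino acid transporter gene Slc7a5, chosen after their values were seen, fell by 0.14 (adjusted p = 0.0148) and 0.21 (adjusted p = 0.00497). Of 10 fibroblast markers all had negative estimates (median -0.19) and 0 were called. Their summed level reached 347.2 CPM in a mouse without ethanol and 284.4 CPM in those with it.

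Markers of cerebellar neurons, by contrast, had positive medians, 0.18 over 15 granule cell genes and 0.18 over 8 Purkinje cell genes, with 0 called. The summed granule cell level was 665.3 CPM in WW replicate 21 and 782.7 CPM in NW replicate 10, and ran from 1407.4 to 1674.7 CPM in the other mice of both sides. Without those mice and WW replicate 20 the medians were -0.07 and -0.05. Grm4 and Il16 followed the same mice. Their estimates of 0.17 and 0.23 did not pass, and became -0.02 and -0.02 without the 3 mice. Of the marker lists of the olfactory bulb (11 tested), olfactory mucosa (8), striatum (8), hypothalamus (9), ependyma (7) and blood (3), 0 genes were called, and without the 3 mice 1, Pltp of the ependymal list, was lower. Slco1a4, Pdgfrb and Kcnj8 of the endothelial list were still called lower without these mice. Of the 16 fits that left out a single mouse, Slco1a4 was called in 16, Pdgfrb in 11 and Kcnj8 in 5. These fits held 1 to 4 calls of the endothelial list.

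**Figure D3:**
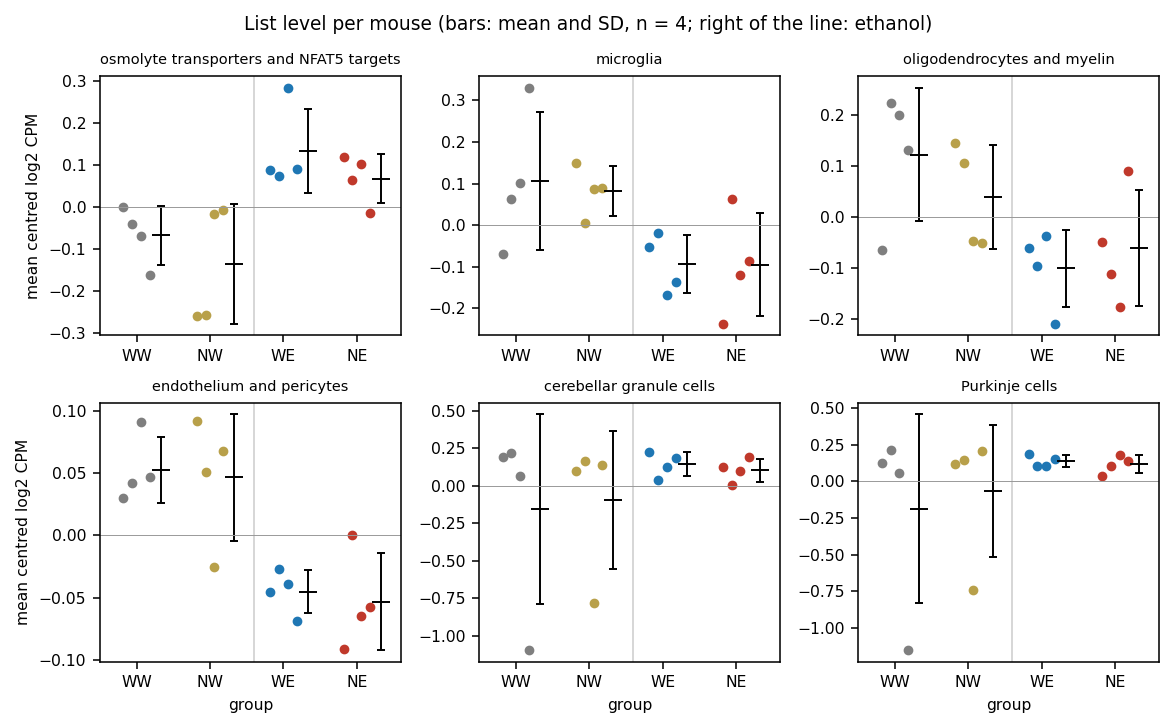
Mean centred log2 CPM (y axis) of 6 gene lists in each mouse of the 4 groups (x axis, with Water-Ethanol as the third), with the mean and SD of each group of 4 as black bars. WW replicate 21 and NW replicate 10 lie below -0.70 in both cerebellar lists, and the ethanol mice lie mostly below the others in the microglial, myelin and endothelial lists.

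Rasgef1b, a guanine nucleotide exchange factor, ranked first among the genes that fell, with 1496 to 1766 normalized counts (median 1624) without and 1258 to 1482 (median 1373) with ethanol, a log2 fold change of -0.25 (SE 0.039, adjusted p = 0.00243), and the groups did not overlap. Ctps, which makes cytidine triphosphate, fell by 0.18 (SE 0.029), and Polr3b, the second largest subunit of RNA polymerase III, by 0.29 (SE 0.05). Cyfip1, a subunit of the WAVE complex that drives actin branching, fell by 0.15 (SE 0.024), although it shares exon positions with Nipa2 on the opposite strand. Actb, cytoplasmic beta-actin, had 23279.9 to 26564 normalized counts (median 25389.8) without and 19571 to 23425 (median 21416) with ethanol, a log2 fold change of -0.23 (SE 0.038, adjusted p = 0.00445). Actg1, its gamma counterpart, had -0.15 (adjusted p = 0.0198). Both are often used as reference genes.

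By size, the leading genes were of low abundance. A3galt2, a galactosyltransferase gene, rose from 13.6 to 27.4 normalized counts (median 19.9) to 34.8 to 67.9 (median 47.4), a log2 fold change of 1.23 (SE 0.17, adjusted p = 0.00149). Ptpn22, Cfp and Il20rb, a phosphatase of lymphocytes, the complement regulator properdin and a cytokine receptor subunit, rose by 0.89, 0.77 and 0.74. Their groups overlapped, and in Ptpn22 and Il20rb the lowest mouse was WW replicate 21, at 53.5 and 64.0 normalized counts. In Ptpn22, Cfp and Il20rb alike, Water-Ethanol replicate 15 was the highest ethanol mouse. Myo1a, an unconventional myosin, rose by 0.68 without overlap. Vnn1, a pantetheinase, had a log2 fold change of -1.50 (SE 0.24, adjusted p = 0.00317) at 2.05 to 16.2 normalized counts in all 16 mice. The histone H1 gene Hist1h1c fell by 0.70 (SE 0.13), the interferon-inducible GTPase gene Iigp1 by 0.68 (SE 0.14) and Dmrtc1a by 0.52 (SE 0.12). Hnrnpa1 and Hnrnph1 were the 2 calls of 30 splicing factors (6.67%, against 4.5% of all genes), at 0.52 and 0.17. Without the 3 mice Hnrnpa1 was higher and Hnrnpd lower. Hnrnpa1 shares its sequence with the overlapping pseudogene annotations Gm10052 and Gm5643, so its count is uncertain. Neurod2 and Aldh1l1 were the single calls among 12 cortical and 11 astrocyte markers (8.33% and 9.09%), at 0.17 and -0.19. Neurod2 was not called without the 3 mice. Ndufa9 was the single call among 38 nuclear oxidative phosphorylation subunits (2.63%), at -0.12 (SE 0.028).

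Some lists shifted in small steps with hardly a call. Of 42 cytosolic ribosomal protein genes 41 had a negative estimate, with a median of -0.06 and 0 called. That median was -0.01 in the water and -0.10 in the nicotine background. Of the 38 oxidative phosphorylation genes 36 were negative (median -0.05). With the correction for GC content and length described below, the medians of the ribosomal and oxidative phosphorylation lists were both -0.02. Of 25 genes of synaptic vesicle release and 23 of cholesterol synthesis, 20 and 19 were negative and 0 were called, and without the 3 mice Insig1 and Srebf1 of the latter were lower. Over all 15592 genes 7923 estimates were positive and 7669 negative. Genes of a list are not independent, and these shifts of a few percent were not tested.

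The ethanol effect was then followed in each background, between mice that were not shared. Both contrasts came from the same fit over all 16 mice, with a shared estimate of each gene's spread. Their p-values are thus not independent, although no mouse is in both. Without nicotine (Water-Ethanol against WW) 28 genes (0.18%) were called, 16 higher and 12 lower. With nicotine (NE against NW) 57 genes (0.366%) were called, 47 higher and 10 lower. When each pair of groups was fitted alone, 70 genes were called without nicotine and 0 with it. Of the 28 genes, 25 had the same direction in NE against NW and 21 (75.0%) also had an unadjusted p-value under 0.05 there, against 11.5% of all genes. Of the 57 genes, 54 had the same direction in Water-Ethanol against WW and 37 (64.9%) also an unadjusted p-value under 0.05, against 13.2% of all genes. Over all genes 64.0% had the same sign in both, and Pearson's r of the log2 fold changes was 0.283. This r is taken across 15592 genes, and genes do not count as independent replicates. The genes called in both backgrounds numbered 9, namely C77080, Car15, Chd2, Furin, Kcnj13, Med13l, Serinc2, Tgfb3 and Zfp609. The log2 fold changes of Chd2 were 0.29 and 0.31, those of Tgfb3 0.42 and 0.39 and those of Kcnj13 0.62 and 0.52.

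The counts in single backgrounds moved widely. Leaving out a mouse gave 4 to 125 genes without nicotine and 0 to 225 with it, with the lowest without WW replicate 19 or Water-Ethanol replicate 15 or 16 in the former and without NE replicate 2 or 4 in the latter, and the highest without NW replicates 7 and 11. No gene (0%) passed the test of the interaction, in which the smallest adjusted p-value was 0.577 and 1054 genes (6.76%) had an unadjusted p-value under 0.05. Among the 702 genes called over both backgrounds 43 (6.13%) had an unadjusted interaction p-value under 0.05. DESeq2 called 2 genes in that test, Serp1 and Snord15b. The 3 genes with the smallest interaction p-values were Serp1, Arl5b and Snord15b. Serp1, a gene of the secretory pathway, had -0.12 in the water and 0.19 in the nicotine background. Arl5b had -0.08 and 0.29, and the small nucleolar RNA Snord15b had 0.99 and -3.06 at 1.92 to 81.9 normalized counts. Cav2, encoding a caveolar protein, had -0.33 and 0.12 with an unadjusted interaction p-value of 0.00153 in edgeR's test, and Slc6a13, a GABA and taurine transporter, had -0.08 and -0.27.

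**Figure D4:**
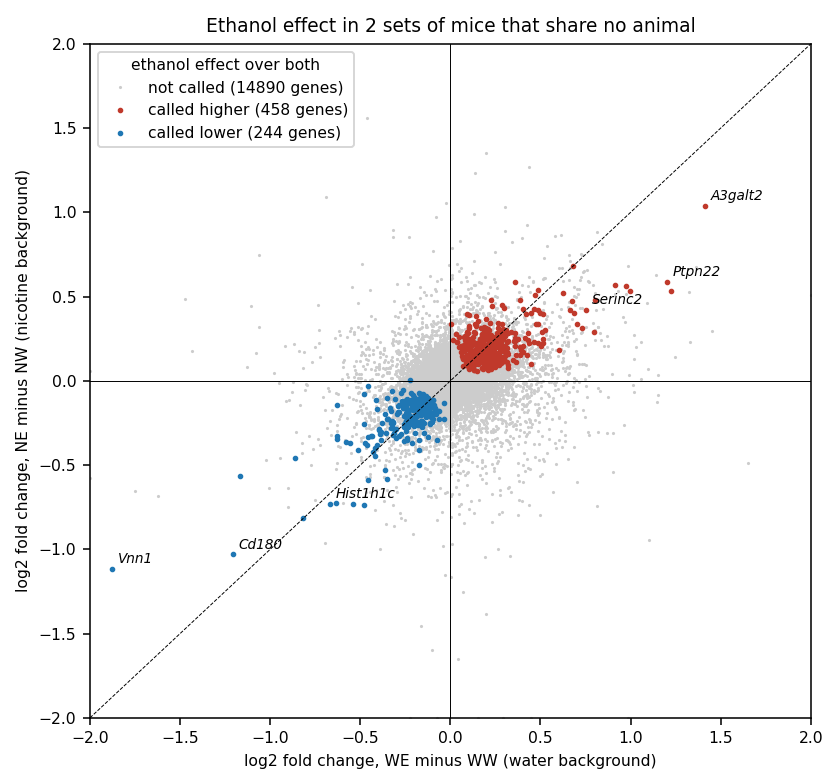
Log2 fold changes with ethanol of 15592 genes in the water background (x axis, Water-Ethanol minus WW) and in the nicotine background (y axis, NE minus NW), 2 sets of 8 mice with no animal in common. Red points were called higher and blue points lower over both backgrounds, 701 of these 702 genes (all but Tnr) have the same sign on both axes because the call averages both, and values beyond 2 are drawn at 2.

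Calls depended on the length of a gene. With the genes cut by rank into 5 bins of like size, in the bin with the longest exon sequence 5.84% were called higher and 0.898% lower, and in the bin with the shortest 1.06% were higher and 1.57% lower. The median exon length was 4232.5 bases for genes called higher, 2668.5 for those called lower and 2922 for all genes tested. GC content moved less, with 3.86% called higher in the richest bin and 2.19% in the poorest. The median log2 fold change ran from -0.03 in the shortest to 0.03 in the longest bin. A correction for both properties left 813 genes called, 464 of them higher.

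**Figure D5:**
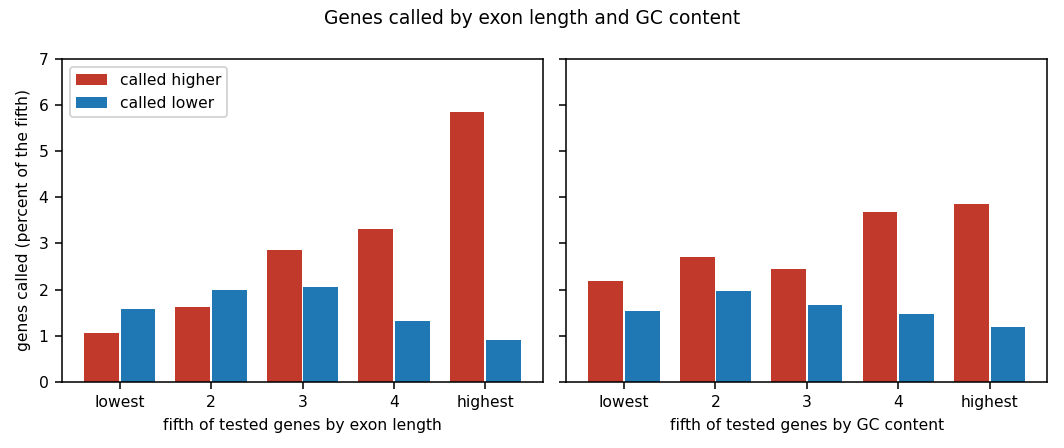
Percent of genes called higher (red) and lower (blue) with ethanol (y axis, from 0) in 5 rank bins of the tested genes by exon length (left) and by GC content (right). Higher calls run from 1.06% in the shortest to 5.84% in the longest bin.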

How the data were processed

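RNA was sequenced from 16 whole brains, 1 library per mouse. The authors trimmed reads with Trimmomatic 0.32, aligned them with TopHat2 to the mm10 build and deposited raw read counts per gene (24062 genes). The deposited FPKM values per gene, from the Cufflinks tools, were used here only in an alternative, as log2(FPKM + 1). The program behind the counts is not given in the sources used here, and the FPKM hold no depth. In the names of 27 genes a spreadsheet had written a date. Total counts ran from 27100352 to 32880979 (median 29448284), which sets the counting precision.

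Counts were normalized by TMM, filtered with edgeR's default and fitted over all 16 mice with a mean per group (edgeR 4.0.16 in R 4.3.3, quasi-likelihood test, Benjamini-Hochberg threshold 0.05). The contrast was the mean of Water-Ethanol and NE minus the mean of WW and NW. Single genes were also compared by an exact two-sided permutation of log2(normalized count + 1) within each nicotine background. The genes, gene lists and tests were chosen with earlier results of these data known. Genes named were the 10 smallest p-values in each direction, the 5 largest changes at 1 CPM or more, called list members and a fixed set. Lists are described by counts and medians, with no test of the list. Gene positions and overlaps follow the deposited count table, and GC content is from GENCODE. Promoters are RefSeq windows of GRCm38.p6, found for 11580 of the genes tested.

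Alternatives were RLE factors, no filter, a stricter filter, DESeq2 1.42.0, limma 3.58.1 on FPKM, a GC and length correction, cerebellar and olfactory bulb marker scores as covariates, an additive model, a model without nicotine, a fit of 2 groups, and leaving out mice. Scripts were tested on simulated data. Python 3.11.15 was used for tables and plots.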

Additional observations from a re-analysis of the deposited data

Results flagged for a closer look

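In 232 groups of 4 mice (genes and marker lists) the highest or lowest mouse was compared with the rest, and in 15 of them it lay far outside the others. Chance alone flags about 1 in 20, or 11.6 here. Slc5a3 was 4089.6 normalized counts in Water-Ethanol replicate 15 against 3105.8 to 3269 in the other 3 mice, and Fosb was 299.9 in Water-Ethanol replicate 14 against 405.5 to 421. Grm4 was 4808 in NE replicate 5 against 4111 to 4192. Grin2b was 3075 in WW replicate 21 against 3686 to 3780.2.

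WW replicate 21 and NW replicate 10 were low in summed granule cell markers, at 665.3 and 782.7 CPM. In the same WW mouse striatal markers were high, at 1050.1 CPM. Pituitary markers were 3.25 CPM in WW replicate 19 and 16.4 CPM in NW replicate 10, against 1.21 to 2.04 CPM in the others of those groups. Blood markers were 9.28 CPM in WW replicate 18 and 7.56 CPM in NW replicate 7. Smaller departures were hypothalamic markers in NE replicate 5 (43.0 CPM), precursor markers in that mouse (366.7 CPM), ependymal markers in NE replicate 3 (89.3 CPM) and microglial markers in Water-Ethanol replicate 14 (357.7 CPM).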

How the results depend on the processing

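No paired analysis was possible because the groups share no replicate numbers. Of 702 called genes, 701 (all but Mir568, which turned under limma) kept their sign in all 27 fits, and 219 were called in each. RLE factors, both other filters, the GC and length correction, the additive model and the model without nicotine left all counts they apply to within 1.5 times. DESeq2 called 1093 genes over both backgrounds (716 higher), 274 without nicotine, 330 with nicotine and 2 for the interaction. With marker scores as covariates 3 genes were called without nicotine, 218 with it and 1 (Snord15b) for the interaction. Without WW replicates 20 and 21 and NW replicate 10 the count without nicotine was 7. Fits of 2 groups alone gave 70 genes without and 0 with nicotine, and limma on log2(FPKM + 1) gave 13 without nicotine. The cause of these shifts was not tested. Leaving out a mouse gave 280 to 899 genes over both backgrounds, 4 to 125 without nicotine, 0 to 225 with it and 0 to 0 for the interaction. The lowest pooled counts, all under 450, came without WW replicate 19 (427) or 20 (352), NW replicate 8 (304), Water-Ethanol replicate 15 (307) or 16 (419), or NE replicate 2 (343) or 4 (280). Among named genes the sign turned for Il16 with marker scores (-0.0029) and without the 3 mice (-0.024), and for Grm4 without them (-0.023). A named call was lost in 212 of the alternative fits of named genes, most often without NE replicate 4 (21 genes). The 4 mice per group limit what could be detected in a single background.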

Other observations

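The gene groups below were chosen after the values were seen, so their counts are descriptions of the same mice and no test was run on them. Of 24 tested genes that textbooks list as regulated by FOXO transcription factors, 9 were higher with ethanol (37.5%, against 2.94% of all genes) and 0 lower. A positive estimate was found in 21, with a list median of 0.13. The 9 higher genes were Irs2, Ccng2, Bcl2l11, Gadd45a, Ulk1, Bbc3, Btg1, Foxo4 and Mxi1. Gadd45a, a stress-inducible inhibitor of the cell cycle, had a mean of 193.7 normalized counts without and 249.5 with ethanol (log2 fold change 0.36, SE 0.063, adjusted p = 0.00524 in edgeR's test). Ulk1, the kinase that starts autophagy, rose by 0.20 (SE 0.037) and Ccng2, an atypical cyclin, by 0.22 (SE 0.044). Without WW replicates 20 and 21 and NW replicate 10 the list held 6 calls. Irs2 is also in the insulin list. Gadd45a and Bbc3, with Mdm2 and Sfn, are the 4 higher genes of 19 tested in a list of p53-regulated genes (21.1%, against 2.94% of all genes). Of these 4 genes 2 (Gadd45a and Mdm2) were called without the 3 mice.

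Of 38 tested ribosome assembly genes whose symbols begin with Utp, Nop, Nol, Noc, Rrp or Rpf, 33 had a negative estimate (median -0.05). In that list 4 genes were called, all lower, namely Nol10 (-0.19), Rpf2 (-0.21), Utp20 (-0.17) and Rrp12 (-0.13). These 4 of 38 were a larger share than the 1.56% of all genes called lower or the 4.5% called in either direction. Without the 3 mice 0 of the 38 were called, and leaving out single mice gave 1 to 4 calls. Of 77 mitochondrial ribosomal protein genes 66 had a negative estimate (median -0.07) and 5 were called lower (Mrpl2, Mrpl39, Mrpl47, Mrpl54 and Mrpl57). This was a share of 6.49%, against 1.56% of all genes called lower and 4.5% called in either direction. Mrpl57 alone was called without the 3 mice, and leaving out single mice gave 1 to 8 calls. With the GC and length correction the median of this list was -0.03. Wdr75 and Ddx21, nucleolar factors of ribosomal RNA synthesis, fell by 0.16 (SE 0.032) and 0.20 (SE 0.039), and Polr2a, the largest subunit of RNA polymerase II, fell by 0.21 (SE 0.044). Of 346 tested C2H2 zinc finger genes named Zfp, 17 were higher and 1, Zfp810, lower, or 5.2%, near the 4.5% of all genes. These counts were 11 and 2 without the 3 mice. Of 19 PHD finger genes named Phf 4 (Phf2, Phf3, Phf21a and Phf21b) were higher (21.1%, against 2.94% of all genes) and 0 lower. The neural progenitor gene Nes rose by 0.43 (SE 0.077), and the proliferation genes Mki67, Mcm3 and Mcm5 had estimates of -0.39, -0.31 and -0.29. These are single genes picked from the results. No list of progenitor or proliferation genes was counted, so they do not describe either class.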
